A study of Mus musculus with 8 samples.

Results

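This account concerns 10 genes that mark or control stem and progenitor cells of the hair follicle: Cd34, Lgr5, Lgr6, Lrig1, Tcf7l1, Lhx2, Sox9, Nfatc1, Fgf18 and Foxc1. They were taken by symbol from a list of follicle stem genes, out of 46983 gene identifiers in the count table, and all 10 had enough counts to be tested. RNA was sequenced from the tail epidermis of 8 mice aged 8 weeks, 4 KO and 4 CTR, with 1 library per mouse. KO mice had the genotype K14-Cre/+ Ppp1r8 fl/-, a Cre transgene driven by the keratin 14 promoter of basal keratinocytes with 1 floxed Ppp1r8 allele and 1 allele written as a minus. CTR mice had the genotype K14-Cre/+ Ppp1r8 fl/+, so that they carried the same Cre and 1 floxed allele beside a wild-type one. Ppp1r8 encodes NIPP1, a nuclear regulator of the protein phosphatase PP1. The epidermis was peeled off after dispase, with no cell sorting mentioned in the labels. Both groups came from a strain with the Tg(KRT14-cre)1Amc/J transgene and the alleles Ppp1r8tm1Ave and Ppp1r8tm1.1Itl. In such bulk samples, fewer cells of a type and less RNA per cell cannot be told apart.

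The hair follicle is renewed by several stem and progenitor pools that lie at different heights. The bulge, below the sebaceous gland, holds slowly cycling cells marked in mouse by CD34, SOX9, LHX2, TCF7L1 and NFATc1, while LGR5 marks cells of the lower bulge and hair germ that respond early when a new growth phase begins. LRIG1 marks the junctional zone at the sebaceous gland opening, and LGR6 marks cells of the isthmus above the bulge and some cells of the gland and the interfollicular epidermis.

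Total counts ranged from 18649079 to 20500885 in KO libraries and from 16696212 to 21571935 in CTR libraries. Ppp1r8 itself had 36.3 ± 7.99 CPM in KO and 37.9 ± 3.57 CPM in CTR (SD, n = 4 each, adjusted p = 0.789). That count covers all exons, and the deleted part is not given in the sources used here, so it does not check the labels. Levels are given as CPM, read counts scaled to a common library size after normalisation by trimmed mean of M values (TMM). The basal keratinocyte markers Krt5 and Krt14 averaged 8333 and 4478 CPM in KO libraries, against 8783 and 4173 CPM in CTR libraries. Of the 8 basal markers listed, Itgb4 and Itga6 were called lower in KO and 0 higher, beside 23.7% called over all genes tested. The log2 fold changes of Itgb4 and Itga6 were -0.89 and -0.36 (adjusted p = 0.00123 and 0.0204). Hair shaft and inner root sheath markers, 19 in the table, summed to 455 to 4518 CPM in KO and 7663 to 14356 CPM in CTR, and 16 of 19 were called lower and 0 higher in KO. Mitochondrial transcripts took 0.781 to 0.984% of counts in KO libraries and 1.15 to 1.26% in CTR libraries, so that the groups did not overlap. The X-linked RNA Xist was also lower, at 419 ± 114 CPM in KO and 791 ± 152 CPM in CTR (adjusted p = 0.00817), and the groups did not overlap.

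Of the 10 follicle stem genes, Fgf18 and Lgr6 were called lower in KO epidermis and 0 were called higher (edgeR quasi-likelihood test, threshold 0.05 on the adjusted p). The same 2 were the members with an unadjusted p under 0.05, and DESeq2 also called 2 lower and 0 higher. When each library was left out in turn, both calls held without KO 1 alone, and without CTR 1 neither did. Sequence just upstream of the transcription start is shown for these 2 because they are the members past the threshold. Each line gives 250 bases of RefSeq sequence (GRCm38.p6), read 5′ to 3′ on the gene's strand and ending at the base before the start.
Lgr6: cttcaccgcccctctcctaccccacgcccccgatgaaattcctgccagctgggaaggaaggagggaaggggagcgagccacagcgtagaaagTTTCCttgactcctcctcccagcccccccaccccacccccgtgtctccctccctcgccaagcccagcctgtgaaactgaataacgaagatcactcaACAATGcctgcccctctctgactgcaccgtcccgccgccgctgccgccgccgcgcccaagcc
Fgf18: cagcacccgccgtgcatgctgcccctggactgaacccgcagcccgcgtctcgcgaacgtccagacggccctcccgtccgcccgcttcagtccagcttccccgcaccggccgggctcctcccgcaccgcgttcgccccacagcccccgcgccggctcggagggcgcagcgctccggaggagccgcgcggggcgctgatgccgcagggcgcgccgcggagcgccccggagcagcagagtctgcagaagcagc
The Lgr6 window is chr1:135105277-135105526 and the Fgf18 window chr11:33147401-33147650, both on the minus strand. Both strands were searched for short letters typical of the transcription factor families among the 10 genes, and capitals mark what was found. The Lgr6 window held ACAATG, a SOX-type match 62 bases before the start, and TTTCC, the NFAT-type letters GGAAA read on the opposite strand, 158 bases before it. The Fgf18 window held none of the letters. Of 32536 such mouse windows, 10.5% held ACAATG, 55.7% GGAAA, 27.7% the TCF/LEF-type letters CTTTGA or CTTTGT, 4.84% the LHX-type TAATTA and 3.17% the FOX-type GTAAACA. Windows were matched by symbol for 7 of the 10 genes.

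Fgf18 encodes a secreted fibroblast growth factor made by the inner layer of the bulge, which in mouse holds follicles at rest. The gene (ENSMUSG00000057967.12) lies on the minus strand of chromosome 11, from 33117430 to 33147400 in GRCm38. It had 2.199, 3.59, 2.70 and 4.18 CPM in KO libraries 1 to 4, against 6.65, 5.62, 4.20 and 7.34 CPM in CTR libraries 1 to 4. Every KO value lay below every CTR value, by a narrow margin between KO 4 and CTR 3. The mean was 3.17 ± 0.885 CPM in KO and 5.95 ± 1.36 CPM in CTR (SD, n = 4 each), 1.88-fold lower in KO. The log2 fold change was -0.91 (SE 0.24, 95% interval -1.44 to -0.39, adjusted p = 0.0199). Fgf18 had the fewest reads of the 10 genes, 42 to 79 counts per KO library and 68 to 156 per CTR library. Its call ended without CTR 1 (adjusted p = 0.0537) and without CTR 4 (adjusted p = 0.0525).

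Lgr6 encodes a receptor for R-spondins, secreted amplifiers of Wnt signalling. It lies on the minus strand of chromosome 1, from 134983301 to 135105276 (ENSMUSG00000042793.13). KO libraries 1 to 4 had 24.8, 22.6, 17.1 and 23.2 CPM, and CTR libraries 1 to 4 had 28.04, 32.3, 35.3 and 25.1 CPM. The groups again did not overlap, with the highest KO library just under the lowest CTR library. The mean was 21.9 ± 3.34 CPM in KO and 30.2 ± 4.52 CPM in CTR (SD, n = 4 each), 1.38-fold lower in KO (log2 fold change -0.46, SE 0.14, 95% interval -0.76 to -0.16, adjusted p = 0.0354). This call lay close to the threshold. It ended without KO 2, KO 3, KO 4, CTR 1, CTR 2 or CTR 3, each left out alone, with adjusted p from 0.0544 to 0.0937 and a log2 fold change of -0.36 to -0.49.

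Over all 15638 genes tested, 23.7% were called, 11.5% higher and 12.2% lower in KO, 37.6% had an unadjusted p under 0.05, and for 26.2% the groups did not overlap. The 2 calls among the 10 genes are near that share. When Xist level was added to the fit, the log2 fold change was -1.30 for Fgf18 and -0.61 for Lgr6, and neither was past the threshold (adjusted p = 0.172 and 0.292). With that term 0.492% of all genes were called. Xist level did not overlap between the groups, so this term cannot be told apart from the group. The SE rose with it to 0.44 for Fgf18 and 0.28 for Lgr6. Calls lost and signs turned in that fit therefore do not tell Xist level from group. The part of the hair shaft genes and of the mitochondrial share in the Fgf18 and Lgr6 differences was not tested.

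**Figure D1:**
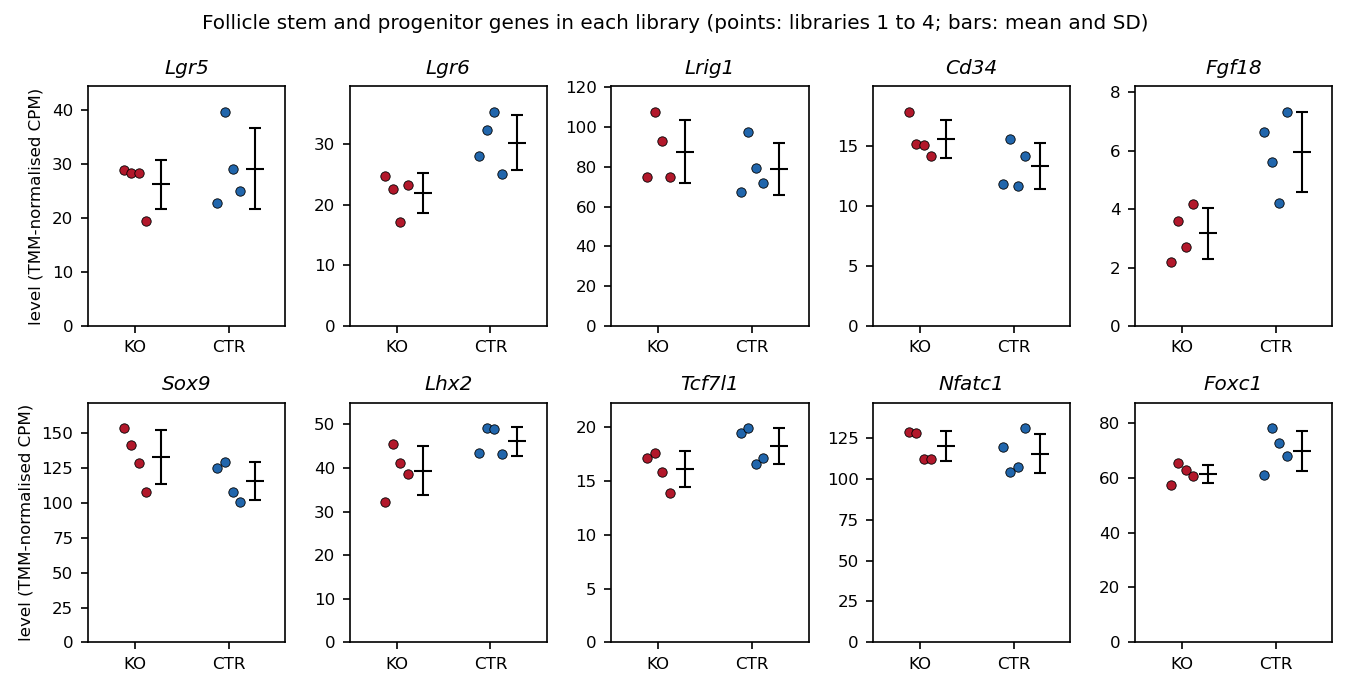
Level of each of the 10 follicle stem genes (TMM-normalised CPM, axes from 0) in KO libraries on the left and CTR libraries on the right of each panel; points are libraries and bars the mean and SD of 4. The groups are apart for Lgr6 and Fgf18 and overlap in the other panels.

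Lgr5 encodes a second R-spondin receptor of the same family and was not called. It had 28.8, 28.2, 28.4 and 19.5 CPM in KO libraries 1 to 4, against 22.8, 39.7, 29.0 and 25.0 CPM in CTR libraries 1 to 4. The 3 higher KO libraries were nearly level, KO 4 lay below all other libraries, and CTR 2 lay above all others. The mean was 26.2 ± 4.51 CPM in KO and 29.1 ± 7.47 CPM in CTR (SD, n = 4 each). The log2 fold change was -0.15 (95% interval -0.56 to 0.25, adjusted p = 0.572), and without CTR 2 it was 0.035. The difference in log2 CPM between Lgr6 and Lgr5 within a library ranged from -0.73 to 0.25 in KO and from -0.30 to 0.30 in CTR, so that the groups overlapped.

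Lrig1 encodes a transmembrane protein that restrains ERBB receptors. Its level was 75.0, 107.7, 93.0 and 74.7 CPM in KO libraries 1 to 4, against 67.5, 97.3, 79.4 and 71.8 CPM in CTR libraries 1 to 4. KO 2 lay above every CTR library, and the other KO libraries lay within the CTR range. The log2 fold change was 0.15 (SE 0.14, 95% interval -0.17 to 0.47, adjusted p = 0.478). Lgr6 and Lrig1 mark neighbouring zones. Log2 CPM of Lgr6 minus that of Lrig1 averaged -1.995 ± 0.416 in KO and -1.39 ± 0.200 in CTR (SD, n = 4 each). The KO values of this difference, -2.44 to -1.60, narrowly missed the CTR values, -1.59 to -1.17. Fgf18 minus Nfatc1 and Lhx2 minus Cd34 also did not overlap between the groups, while Lhx2 minus Sox9 and Lgr6 minus Lgr5 did. These pairs were set side by side after the values were known, so no test is given. Annotated Lrig1 exons share 144 bases with Slc25a26 on the other strand, and that gene had 7.96 CPM in KO and 8.53 CPM in CTR (adjusted p = 0.678).

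Cd34 encodes a sialomucin on the surface of bulge cells, and also of endothelial and mast cells. It had 17.9, 15.2, 15.1 and 14.2 CPM in KO libraries 1 to 4, against 11.8, 15.6, 11.7 and 14.2 CPM in CTR libraries 1 to 4. KO 1 was above every CTR library, and the other KO libraries lay within the CTR range. The mean was 15.6 ± 1.59 CPM in KO and 13.3 ± 1.92 CPM in CTR (SD, n = 4 each, log2 fold change 0.22, 95% interval -0.05 to 0.50, adjusted p = 0.218). Endothelial markers, 10 genes, summed to 2.46 to 3.54 CPM in KO and 2.87 to 8.12 CPM in CTR. Mast cell markers, 8 genes, summed to 8.99 to 17.3 CPM in KO and 10.2 to 23.4 CPM in CTR, almost all of it from Kit, which melanocytes also express, and Cma1 and Fcer1a had 0 counts in all libraries. Of these 2 lists, 3 and 1 genes could be tested, and none was called in either direction. Fibroblast and dermal papilla markers, 11 genes, summed to 18.1 to 57.8 CPM in KO and 34.8 to 54.3 CPM in CTR, and of the 4 tested none was called.

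The 5 transcription factor genes had no call. Sox9, whose product specifies the bulge and outer root sheath, had 153.7, 142, 129 and 108 CPM in KO libraries 1 to 4, against 125, 129.6, 107.7 and 100.6 CPM in CTR libraries 1 to 4. KO 1 and KO 2 lay above every CTR library, and the rest overlapped. The log2 fold change was 0.20 (SE 0.12, 95% interval -0.06 to 0.47, adjusted p = 0.242).

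Lhx2 encodes a LIM-homeodomain factor that keeps bulge cells at rest. KO libraries 1 to 4 had 32.1, 45.5, 41.2 and 38.7 CPM, and CTR libraries 1 to 4 had 43.3, 49.1, 48.9 and 43.2 CPM. KO 1, KO 3 and KO 4 lay below every CTR library, while KO 2 lay within the CTR range. The log2 fold change was -0.23 (SE 0.11, 95% interval -0.47 to 0.01, adjusted p = 0.148), and with Xist level in the fit it was 0.095.

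Foxc1 encodes a forkhead factor that, in mouse, activated bulge cells need to return to quiescence. It had 57.3, 65.2, 62.7 and 60.5 CPM in KO libraries 1 to 4, against 60.9, 78.0, 72.4 and 67.7 CPM in CTR libraries 1 to 4. KO 1 and KO 4 lay below every CTR library, and the difference did not pass the threshold (log2 fold change -0.18, SE 0.09, 95% interval -0.37 to 0.01, adjusted p = 0.145).

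Tcf7l1 encodes TCF3, a mostly repressive TCF/LEF factor of bulge and basal cells. It had 17.1, 17.6, 15.8 and 13.9 CPM in KO libraries 1 to 4, against 19.4, 19.9, 16.6 and 17.2 CPM in CTR libraries 1 to 4. KO 3 and KO 4 lay below every CTR library (log2 fold change -0.18, 95% interval -0.42 to 0.05, adjusted p = 0.238). Tcf7l1 shares 179 exon bases with Gm15401 and Cd34 shares 148 with Gm16897, both on the other strand, and those antisense genes had at most 6 and 2 counts in a library.

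Nfatc1, on chromosome 18, encodes a calcineurin-dependent factor that slows the cycle of bulge cells, and it had the log2 fold change nearest to 0 of the 10. Its level was 128, 127.7, 112 and 112 CPM in KO libraries 1 to 4, against 119, 104, 107 and 131 CPM in CTR libraries 1 to 4. All 4 KO libraries lay inside the CTR range. The log2 fold change was 0.06 (SE 0.09) with a 95% interval of -0.14 to 0.26 (adjusted p = 0.671).

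**Figure D2:**
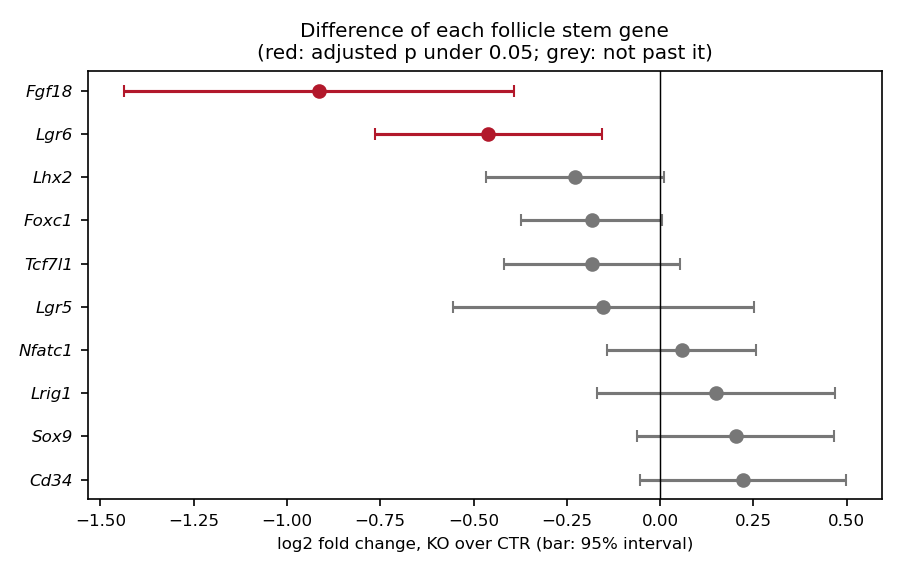
Log2 fold change of each follicle stem gene, KO over CTR, with its 95% interval; red marks an adjusted p under 0.05. Fgf18 (-0.91) and Lgr6 (-0.46) are red, and the intervals of the other 8 genes include 0.

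The 8 genes without a call had 95% intervals whose ends lay between -0.56 and 0.50 on the log2 scale. Of the 10 genes, 6 had a negative and 4 a positive log2 fold change, with a median of -0.17, beside a median of -0.0026 over all genes tested. Leaving out CTR 2 moved the median of the 10 to -0.06 and leaving out KO 4 moved it to -0.07. With Xist level in the fit the median of the 10 was 0.073, of the opposite sign. CTR 2 was the highest CTR library for 7 of the 10 genes, and KO 4 the lowest KO library for 5 of them. Deviations of log2 CPM from the group means had a median Pearson correlation of 0.19 over the 45 pairs of genes, each over the same 8 libraries, with a range of -0.57 to 0.94. The highest was that of Tcf7l1 with Sox9 and the lowest that of Lgr5 with Fgf18. These are descriptions, since all pairs share the libraries and their depths.

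Levels of different genes were compared as CPM per kilobase of annotated exon. On this scale Sox9 was the most abundant of the 10, at 26.2 to 37.2 in KO libraries and 24.3 to 31.3 in CTR libraries, and no library of another member reached it. Nfatc1 and Lrig1 followed at 16.1 and 15.7 in KO and at 15.5 and 14.1 in CTR, with overlapping libraries. Foxc1 and Lhx2 had 10.5 and 8.96 in KO, against 11.9 and 10.5 in CTR, and overlapped each other in both groups. Foxc1 also overlapped Lrig1 in CTR but not in KO. In KO the next were Tcf7l1, Lgr6, Fgf18, Lgr5 and Cd34, at 4.10 to 2.14, where each overlapped its neighbour. In CTR they were Fgf18, Tcf7l1, Lgr6, Lgr5 and Cd34, at 5.02 to 1.83, where Lgr5 and Cd34 did not overlap. Fgf18 was thus 8th of the 10 in KO and 6th in CTR.

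**Figure D3:**
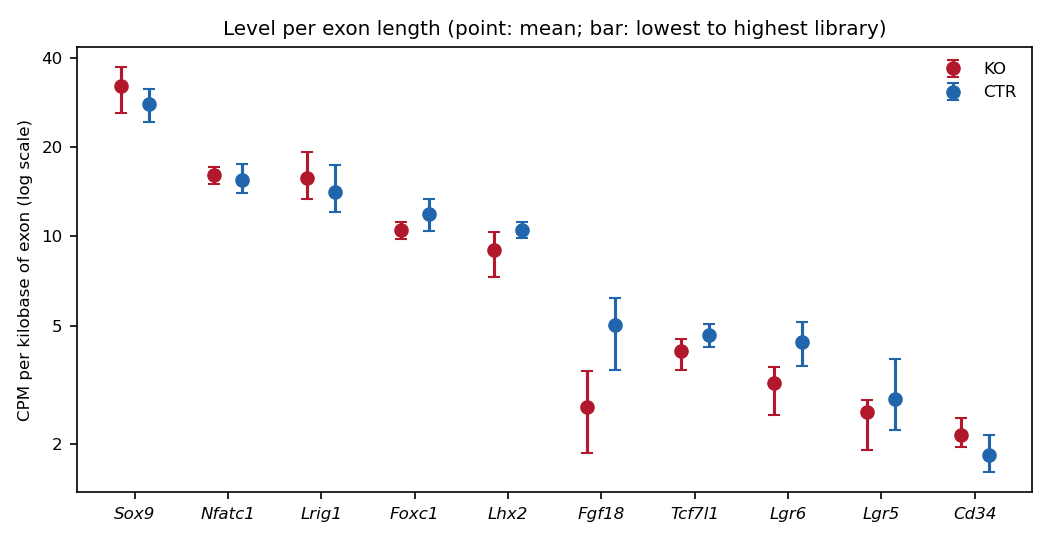
Level of the 10 genes in CPM per kilobase of exon (log scale), KO left and CTR right of each pair; points are means and bars run from the lowest to the highest of 4 libraries. Sox9 is at the top in both groups, and Fgf18 is at 2.67 in KO and 5.02 in CTR.

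Other genes of the same compartments were read from lists. Over all genes tested, 11.5% were called higher and 12.2% lower, and no list was tested against these shares. Among 22 other bulge and hair germ genes, 3 were called higher and 7 lower in KO, with a median log2 fold change of -0.21. Fst, which encodes the activin and BMP antagonist follistatin, had 53.4, 47.0, 32.6 and 39.6 CPM in KO libraries, against 14.9, 18.8, 16.9 and 12.1 CPM in CTR libraries, and rose 2.75-fold (adjusted p = 0.000693). Igfbp5, an IGF-binding protein gene, fell to 15.6 ± 6.96 CPM in KO, against 41.7 ± 5.27 CPM in CTR (SD, n = 4 each, adjusted p = 0.0106). Gas1, a hedgehog co-receptor gene, fell to 156 ± 17.2 CPM in KO, against 249.8 ± 19.0 CPM in CTR (SD, n = 4 each, adjusted p = 0.00138). Nrep fell 2.11-fold (adjusted p = 0.0272), a call that ended without CTR 2 or CTR 3 (highest adjusted p = 0.0727). The keratin gene Krt15 of this list, named after its value was seen, was 1842 CPM in KO and 2680 CPM in CTR (adjusted p = 0.00293). Besides Fst, Dkk3 and Postn were called higher, with log2 fold changes of 0.38 and 0.55 (adjusted p = 0.0308 and 0.0171). The Dkk3 call ended without KO 2, CTR 2 or CTR 3 (highest adjusted p = 0.0862). Foxp1, Id2 and Col17a1 were the remaining genes called lower. Without KO 4, or without CTR 2, 4 genes of this list were called lower in place of 7. With Xist level in the fit 0 of the 22 were called.

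Genes of the junctional zone, isthmus and infundibulum other than the members were mostly higher in KO. Of 10 in the list, 8 rose and 0 fell, with a median log2 fold change of 0.56. The number that rose was 6 to 8 when any 1 library was left out. Defb6, a beta-defensin gene of the upper follicle, had 386, 452, 357 and 547 CPM in KO libraries, against 163, 192, 283 and 190 CPM in CTR libraries (2.11-fold, adjusted p = 0.00339). Ly6a, which encodes the surface antigen SCA-1, averaged 197.5 ± 40.4 CPM in KO and 100.8 ± 10.8 CPM in CTR (SD, n = 4 each, adjusted p = 0.00165). Krt17, an upper follicle and outer root sheath keratin gene that injured epidermis also expresses, rose 1.78-fold (adjusted p = 0.00109). Sostdc1, a secreted BMP and Wnt antagonist gene, rose 1.63-fold (adjusted p = 0.0212), a call that ended without CTR 1 or CTR 4 (highest adjusted p = 0.0563). Plet1 and Prdm1 were the others, with log2 fold changes of -0.08 and -0.16 (adjusted p = 0.741 and 0.367). Without KO 3, Prdm1 was called lower (adjusted p = 0.0271). With Xist level in the fit 1 gene of this list, Ly6a, was called. Beside these, 4 of 8 sebaceous gland markers were called higher and 0 lower, and the list summed to 6566 to 9092 CPM in KO and 4272 to 5880 CPM in CTR, so that the groups did not overlap. The part of sebaceous cells in the upper follicle values was not tested.

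Genes of the inner bulge layer and companion layer moved both ways, 2 of 6 higher and 2 lower. Bmp6, whose product the inner bulge cells secrete beside FGF18, had 10.2, 9.65, 10.1 and 9.20 CPM in KO libraries, against 15.4, 12.8, 14.2 and 17.8 CPM in CTR libraries. No library of one group reached the other (log2 fold change -0.62, SE 0.12, adjusted p = 0.00543). Timp3, a metalloproteinase inhibitor gene, was 1.52-fold lower in KO (adjusted p = 0.0313), a call that ended without KO 4, CTR 1, CTR 2 or CTR 3 (highest adjusted p = 0.0820). The keratin genes Krt16 and Krt6a, which stressed epidermis also expresses, rose to 896 and 1518 CPM in KO, against 219 and 1011 CPM in CTR (adjusted p = 0.000235 and 0.0191). The Krt6a call ended without CTR 1 or CTR 3 (highest adjusted p = 0.0569).

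The lists of partners of Lgr5, Lgr6 and Lrig1 held few tested genes, and over all genes tested 23.7% were called. Of 8 R-spondin pathway genes, 4 could be tested and 0 were called in either direction, while 1 had an unadjusted p under 0.05. The third receptor gene of the family, Lgr4, had 178 ± 15.7 CPM in KO and 198 ± 18.5 CPM in CTR, and Znrf3, an E3 ligase gene that R-spondins antagonise, had 44.2 ± 4.53 CPM in KO and 38.3 ± 1.82 CPM in CTR (SD, n = 4 each, adjusted p = 0.246 and 0.111). Rspo4 had 0 counts in every library, and Rspo1 had 1 to 10 counts in KO libraries and 5 to 11 in CTR libraries. Of 7 tested LRIG relatives and ERBB receptor genes, Erbb2 fell to 124 ± 9.57 CPM in KO, against 172 ± 9.99 CPM in CTR (SD, n = 4 each, adjusted p = 0.00285), and 0 rose. Erbb3 had 176 CPM in KO and 191 CPM in CTR (adjusted p = 0.434).

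Of 8 tested FGF receptor and ligand genes, 3 fell and 0 rose, beside 12.2% lower and 11.5% higher over all genes tested. Fgfr2 fell to 161 ± 13.3 CPM in KO, against 249 ± 15.8 CPM in CTR (SD, n = 4 each, adjusted p = 0.0011). Fgfr3, a receptor gene for FGF18, fell to 164 ± 12.1 CPM in KO, against 199.6 ± 13.1 CPM in CTR (adjusted p = 0.0265), a call that ended without KO 1, KO 2, CTR 1, CTR 2 or CTR 3 (highest adjusted p = 0.0901). The third was Fgf5, a gene that ends hair growth, at 0.281 CPM in KO and 0.876 CPM in CTR (adjusted p = 0.0161). The Fgf5 level was below 1 CPM in both groups. In KO it was not far above a floor of 3 counts, 0.146 to 0.161 CPM in KO libraries.

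Of 7 tested TCF/LEF and Groucho genes, 2 fell and 0 rose, beside 12.2% lower and 11.5% higher over all genes tested. Lef1, the hair matrix and precortex relative of Tcf7l1, had 2.93, 9.55, 10.2 and 4.34 CPM in KO libraries, against 18.1, 28.1, 33.1 and 29.2 CPM in CTR libraries, and was 4.00-fold lower in KO (adjusted p = 0.00395). KO 1 and KO 4, the lowest KO libraries for Lef1, were also the KO libraries with the lowest hair shaft and inner root sheath sums, at 455 and 1058 CPM. That match was seen after the values were known, and the part of hair cells in the Lef1 values was not tested. Tcf7 fell to 27.9 ± 2.05 CPM in KO, against 41.95 ± 1.73 CPM in CTR (SD, n = 4 each, adjusted p = 0.00111). Among 12 tested SOX, LHX and forkhead relatives, 1 rose and 7 fell, with a median log2 fold change of -0.64. Foxn1, a hair differentiation factor gene, had 67.2 ± 21.1 CPM in KO and 153 ± 8.73 CPM in CTR, and Foxq1, a hair shaft medulla factor gene, had 43.3 ± 8.30 CPM in KO and 91.3 ± 13.4 CPM in CTR (SD, n = 4 each, adjusted p = 0.00226 and 0.00129). Sox6 was 2.21-fold lower and Foxc2, a close relative of Foxc1, 2.63-fold lower, at 1.13 CPM in KO and 2.98 CPM in CTR (adjusted p = 0.00307 and 0.00425). Of 16 NFAT, calcineurin and BMP genes, 1 rose and 4 fell, beside 11.5% higher and 12.2% lower over all genes tested. Rcan1, a calcineurin inhibitor gene that NFAT activates, rose 1.33-fold (adjusted p = 0.0179). Ppp3cb, a calcineurin subunit gene named after its value was seen, fell, with a log2 fold change of -0.35 (adjusted p = 0.0145). The BMP ligand genes Bmp4 and Bmp2 fell to 4.89 and 24.6 CPM in KO, against 11.7 and 37.3 CPM in CTR (adjusted p = 0.0152 and 0.0100). Id3, a BMP target gene, was 1.30-fold lower in KO (adjusted p = 0.0438), and that call held in 2 of the 8 fits that left out a library. The Rcan1 call ended without CTR 1 (adjusted p = 0.0521). Of the genes named from the lists, Ly6a and Krt16 were the ones called with Xist level in the fit. In that fit the log2 fold change of Lef1 was -0.89 (adjusted p = 0.375), and those of Bmp4, Nrep and Timp3 changed sign, at 0.053, 0.088 and 0.079 (adjusted p = 0.945, 0.931 and 0.888).

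**Figure D4:**
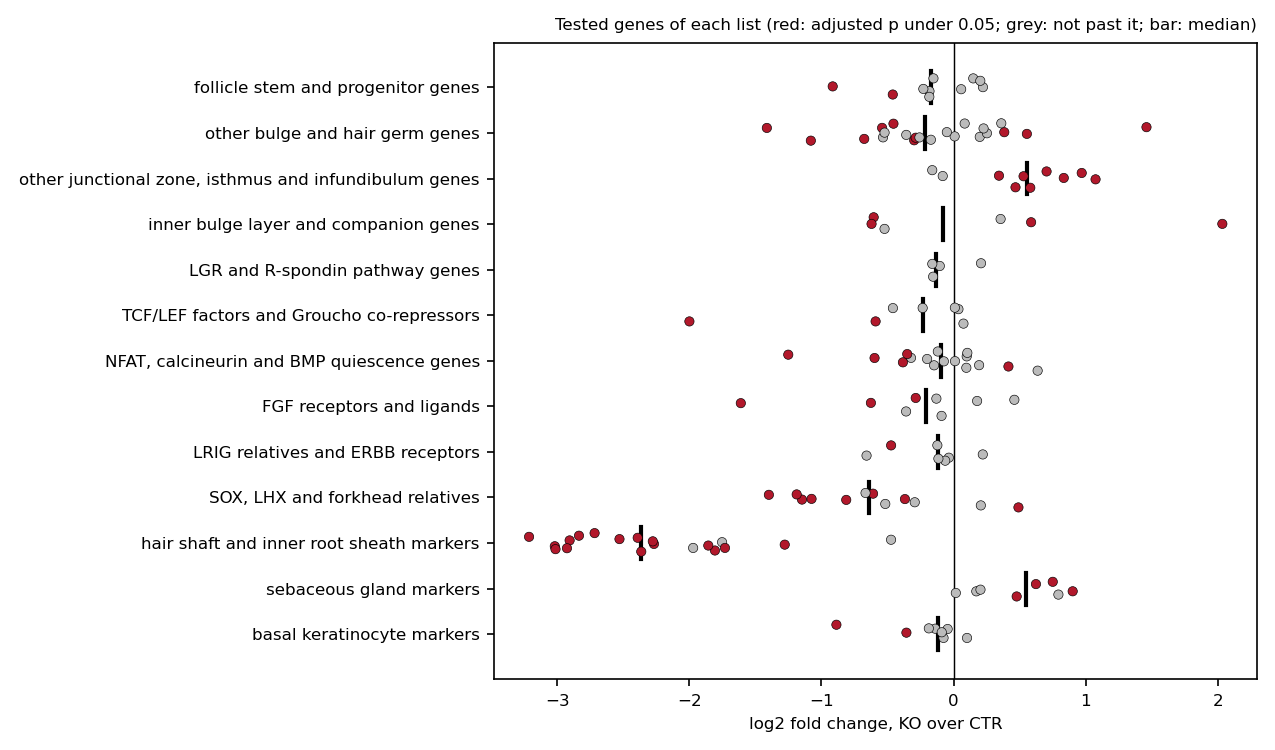
Log2 fold change, KO over CTR, of the tested genes of each list; points are genes, red marks an adjusted p under 0.05 and black bars are list medians. The follicle stem genes lie near 0 (median -0.17), the other junctional and upper follicle genes mostly above it (0.56) and the hair shaft and inner root sheath markers below it (-2.36).

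Beside the hair shaft and inner root sheath markers, whose 19 tested genes had log2 fold changes of -3.21 to -0.47, the 10 follicle stem genes ranged from -0.91 to 0.22. With Xist level in the fit, these hair markers ranged from -0.76 to 0.27 with 0 called, and the 10 genes from -1.30 to 0.72. Basal keratinocyte markers had 2 of 8 called lower and 0 higher, with a median of -0.11, beside 23.7% called over all genes tested. Melanocyte and Schwann cell markers had 4 of 7 called higher and 0 lower, and T cell and leukocyte markers 5 of 7 higher and 1 lower. Melanocyte and Schwann cell markers summed to 300.5 to 522 CPM in KO and 207 to 318 CPM in CTR, and T cell and leukocyte markers to 111 to 154 CPM in KO and 65.7 to 101 CPM in CTR. Their part in the values of the 10 genes was not tested.

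**Figure D5:**
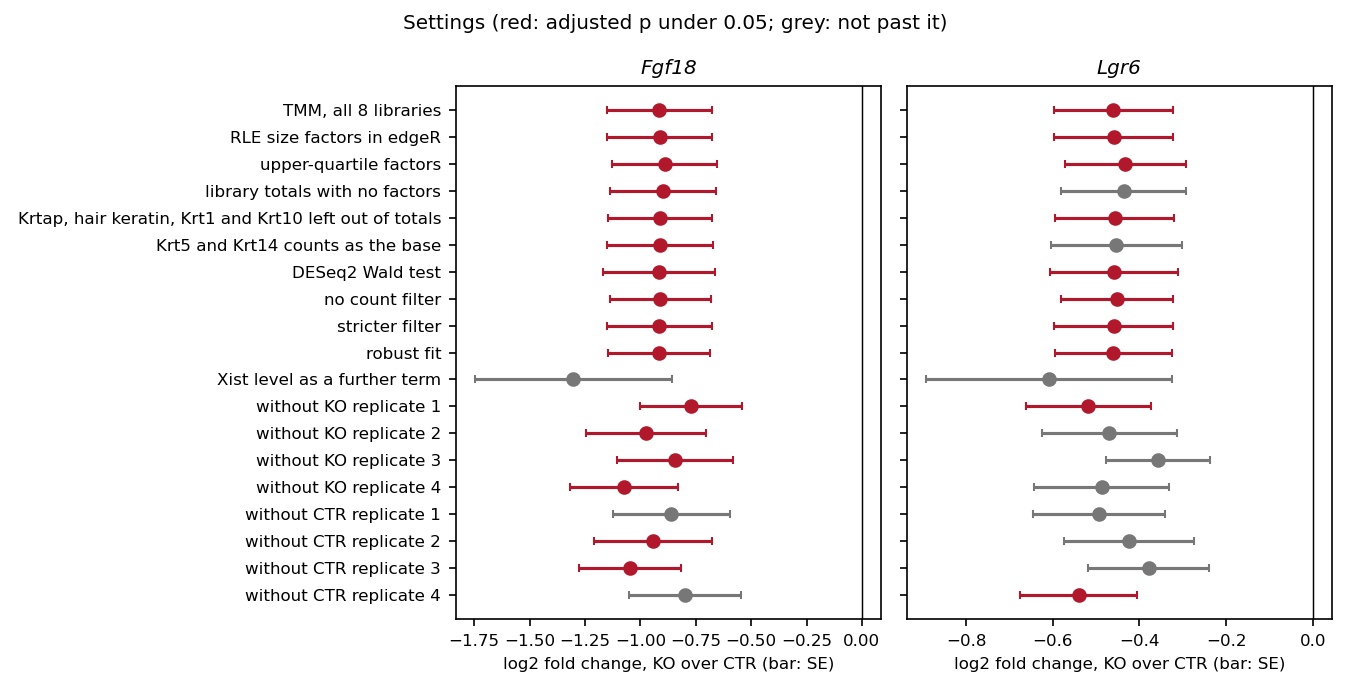
Log2 fold change, KO over CTR, of Fgf18 (left) and Lgr6 (right) in the fit to all 8 libraries and under each other setting; points are estimates, bars their SE, and red marks an adjusted p under 0.05. All estimates are negative, from -1.30 to -0.77 for Fgf18 and from -0.61 to -0.36 for Lgr6.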

How the data were processed

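The authors deposited whole-number counts of reads for each gene, not normalized, as the values show. Per the submitters' processing notes, tools included cutadapt 1.7.1, STAR 2.4.1d and featureCounts 1.4.6, with genome build GRCm38. The annotation release and the strand setting of counting are not stated there. Symbols, positions and exon lengths came from GENCODE mouse release M21 (46488 of 46983 identifiers matched).

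The 8 libraries were compared using edgeR 4.0.16 under R 4.3.3 (quasi-likelihood test, two-sided, group as the only term, TMM, filterByExpr defaults, 15638 genes). Benjamini-Hochberg adjustment ran over all of them, with a threshold of 0.05. "Called", "rose" and "fell" refer to it. The script was run on simulated counts with far fewer changed genes than were called in these data. How often differences as small as those of most members are called is not given here. No libraries of a group agreed within sampling noise. A floor of 3 counts was 0.139 to 0.180 CPM, covering counting error only. Members and lists were chosen with earlier results of these data known. From each list of other genes the text names up to 4 called genes at a mean of at least 1 CPM with the largest change, filled up to 2 with the most abundant; other names were added after their values were seen. Alternatives were other scalings, filters and tools (DESeq2 1.42.0), the level of Xist as a term, and leaving out each library.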

Additional observations from a re-analysis of the deposited data

Results flagged for a closer look

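In the KO group, Lgr5 in KO 4 (19.5 CPM) lay far below the other KO libraries (28.2 to 28.8 CPM). Its gap to the nearest of them was 0.94 of the range of the group, above the 95% critical value of Dixon's test for 4 samples. Of 20 groups of 4 libraries (10 genes in 2 groups) this was the 1 so marked, and chance marks about 1 in 20.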

How the results depend on the processing

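The count of follicle stem genes called lower, 2, was 1 with library totals in place of TMM factors and 1 with Krt5 and Krt14 counts as the base (Lgr6 adjusted p = 0.0504 and 0.0617). It was 0 with Xist as a further term, and 0 to 2 when each library was left out, with 0 without CTR 1. It stayed at 2 with RLE or upper-quartile factors, without hair and spinous keratins in the totals, with DESeq2, with no or a stricter count filter and in the robust fit. The count called higher was 0 under all 18 alternatives. With Xist as a further term, the other junctional list had 1 gene called higher in place of 8, and the other bulge list 0 lower and 0 higher in place of 7 and 3. When each library was left out, the bulge list had 4 to 7 lower and 2 to 3 higher, and the junctional list 6 to 8 higher. These list counts were added after seeing the data. Signs turned for Lgr5 (0.46), Lhx2 (0.095), Nfatc1 (-0.17) and Foxc1 (0.052) with the Xist term and for Lgr5 without CTR 2, none of them past the threshold. Leaving out each library gave Lgr5 -0.25 to 0.035. The cause was not tested, and the Xist term cannot be told apart from group, since Xist level did not overlap between the groups. Over the 10 genes and 18 alternatives, 163 log2 fold changes kept their direction and side of the threshold, and 12 kept their direction but not the call (9 of Lgr6 and 3 of Fgf18). No paired analysis was run because the labels give no replicate numbers and tie no KO mouse to a CTR mouse by litter, batch or day. Mouse IDs of a KO and a CTR mouse often lie close together, but the labels do not say why. The library numbers used here follow the order of the samples within each group. Fgf18 had the fewest reads of the 10 genes, 42 to 156 counts per library.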
